A study of Homo sapiens with 45 samples.

Results

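The cytosolic ribosomal protein genes were followed through 45 whole-genome expression arrays of A375, an established human melanoma cell line. Members were taken by symbol alone, as genes named RPL or RPS with a number or RPLP0, RPLP1, RPLP2 or RPSA, without RPS6K kinases, pseudogenes and paralogs whose names end in L or L1. This gave 53 of the 19775 genes that have a probe set of their own, 32 of the large (60S) and 21 of the small (40S) subunit, each read from its probe set of highest mean. A further 15 ribosomal protein genes, RPL5 among them, are listed only on probe sets that carry several names and are not members, and RPLP0 and RPSA were not analysed here.

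The cytosolic ribosome joins a small subunit, which reads the mRNA, to a large subunit, which forms the peptide bonds. Its proteins are made in near-equal numbers from some of the most abundant mRNAs of a growing cell. Most of these mRNAs begin with a terminal oligopyrimidine (TOP) tract, a cytidine followed by further pyrimidines, through which mTOR and LARP1 control their translation.

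Of the 45 cultures, 39 were each transfected with an siRNA pool against 1 target, mostly a regulator of the cell cycle or a transcription factor, 3 received control siRNA and 3 were untreated. RNA was taken 48 hours after transfection, and the labels and the methods differ on the siRNA concentration. By the published list of siRNAs, 9 of the 39 targeting arrays belong to batch KD1, 23 to KD2 and 7 to KD3, and the batch of the other 6 is not stated. Each siRNA has a single culture and array, all arrays share 1 cell line, and the cells, handling, hybridisation and siRNAs of a batch cannot be told apart. Values are log2 intensities from the authors' RMA normalisation. A median of at least 8.59, which is 1.5 times the 3' BioB control, was taken as above noise, and 4800 genes, 49 of them members, were above it.

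Of the 8 measured genes of the melanocyte lineage, 3 were above noise (SOX10, S100B and MITF), while the pigment genes PMEL, MLANA, TYR and TYRP1 were below it. Of measured markers of other cells, 0 of 4 for leukocytes, 0 of 5 for fibroblasts and 0 of 3 for endothelium were above noise, and 1 of 4 for epithelium, KRT18, was. The summed intensity of the melanocyte list was 5050 to 6000 in KD1, 3310 to 4150 in KD2 and 1640 to 1990 in KD3. These ranges did not overlap, but a sum of unlogged values weighs the brightest gene most. That gene, SOX10, was at log2 levels of 11.73, 10.89 and 10.25 in KD1, KD2 and KD3. S100B was at 9.87, 9.94 and 7.73, and MLANA and TYRP1, below noise, were highest in KD3. In such bulk samples fewer cells of a type and less RNA per cell cannot be told apart. The log2 difference between the 3' and 5' control probe sets of ACTB was 1.01 to 1.76 in KD1, 1.09 to 2.08 in KD2 and 0.51 to 0.66 in KD3, and that of GAPDH was 0.04 to 0.14, -0.09 to -0.02 and -0.14 to -0.09. Untreated array 3 and control siRNA array 3 agreed within 10% in 95.4% of probe sets, against at most 62.0% in any other pair.

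The TOP tract can be read at the annotated starts of most members. RefSeq's start table (GRCh38.p14) holds 47 of the 53 members, and 35 of these (74.5%) have at least 1 start with C at the first transcribed base followed by at least 4 of C or T, read on the gene's own strand. The same holds for 8.35% of the 4097 genes above noise that the table lists and for 5.14% of all 27305 genes in it. The pyrimidine run of these 35 was between 5 and 19 bases long, with a median of 8. Of the other lists used below, 12 of 13 further TOP mRNAs of translation have such a start and 5 of 67 mitochondrial ribosomal proteins do. The tracts of 6 members that the results below turn on, and the starts of 2 members without one, are shown as 15 bases before and 15 from the annotated start, with the pyrimidine run at the start in capitals.

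RPL36, chr19:5690280-5690309, plus strand: ccgcgcggcgccagcCCTTCCgccacggcc
RPL12, chr9:127451392-127451421, minus strand: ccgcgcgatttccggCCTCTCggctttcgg
RPL11, chr1:23691791-23691820, plus strand: cggaagctccgctttCTCTTCCTgctctcc
RPL41, chr12:56116618-56116647, plus strand: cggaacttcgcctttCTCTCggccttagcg
RPS9, chr19:54200843-54200872, plus strand: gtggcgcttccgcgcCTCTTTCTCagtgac
RPS27, chr1:153990747-153990776, plus strand: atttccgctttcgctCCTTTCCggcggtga
RPS15, chr19:1438381-1438410, plus strand: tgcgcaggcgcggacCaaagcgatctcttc
RPS4X, chrX:72277234-72277263, minus strand: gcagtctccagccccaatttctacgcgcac

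RPS15 has a single C at its annotated start and RPS4X begins with A. The 35 members with a TOP start and the 12 without one had median levels of 14.25 and 14.19, and their SDs over the targeting arrays had medians of 0.0388 and 0.0422.

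Ribosomal protein mRNAs were among the brightest signals of these cells. Of the 53 members, 48 had a mean log2 intensity of at least 13 and 36 of at least 14, against 137 and 52 of all 19775 genes, so that 35 of the 50 brightest genes were ribosomal protein genes. The median mean was 14.13 for the large and 14.35 for the small subunit. The brightest was RPL41, which encodes the smallest ribosomal protein, at a mean of 14.89, where the highest value of the whole table is 14.97. Levels of different genes come from different probes and are not compared further.

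The members above noise fell below a mean of 13 in 1 case, RPL36, at 12.67. The other 4 members (RPL27A at 7.99, RPLP2 at 6.25, RPL36A at 5.19 and RPS4Y1) were below noise. For RPL27A, RPLP2 and RPL36A the probe set of their own name is dim, while a second one that lists the gene with a snoRNA or another locus is bright. For RPL27A the one shared with SNORA3A had a mean of 14.27, and for RPLP2, a protein of the acidic stalk that recruits elongation factors, the one shared with SNORA52 had a mean of 13.60. The dim values of these 3 genes are therefore given apart from the rest, and RPS4Y1, the Y-linked copy of RPS4X, is counted but not described.

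**Figure D1:**
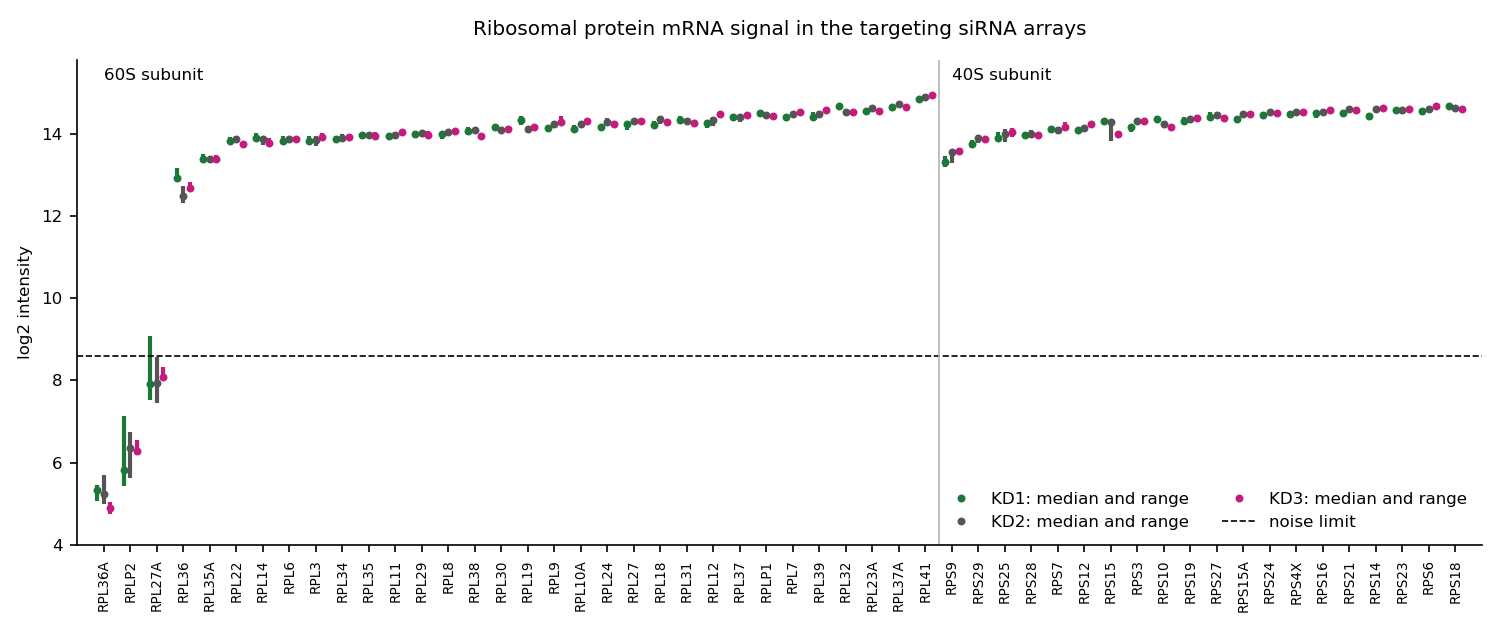
Log2 intensity (y axis) of 52 ribosomal protein genes (x axis, ordered by mean within each subunit, RPS4Y1 not drawn) in batches KD1, KD2 and KD3, with points for the median and bars for the range over 9, 23 and 7 arrays. All but RPL36A, RPLP2 and RPL27A lie above the noise limit of 8.59, and RPL41 is highest at a mean of 14.89.

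The first comparison asked how far each siRNA moved these mRNAs. Each value was set against the median of its gene in its batch. With 1 array for each siRNA no test is possible. Over the 39 arrays the SD of a member had a median of 0.0393 on the log2 scale, against 0.121 for genes above noise. In the 48 members with a mean of at least 13 it was 0.0377, against 0.0655 for the 89 other genes as bright. Within the level from 13 to 14 the medians were 0.0439 for 12 members and 0.0662 for 73 other genes, and from 14 to 15 they were 0.0359 for 36 members and 0.0498 for 16 others. The SD of the other genes fell from 0.138 near the noise limit to these values, so a small SD goes with a high level on these arrays. The part that the upper end of the signal range plays in the members' small SD was not tested.

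The steadiest members were RPL37A, a large-subunit zinc finger protein, with an SD of 0.0195 and values from -0.05 to 0.05 about the batch median, RPS4X at 0.0221, RPS21 at 0.0255, RPS23 at 0.0256 and RPL23A at 0.0268. RPL37A had the lowest SD of all 19775 genes. The largest SDs belonged to the members below noise, with RPLP2 at 0.324, RPL27A at 0.283 and RPL36A at 0.133, followed by RPL36 at 0.106.

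**Figure D2:**
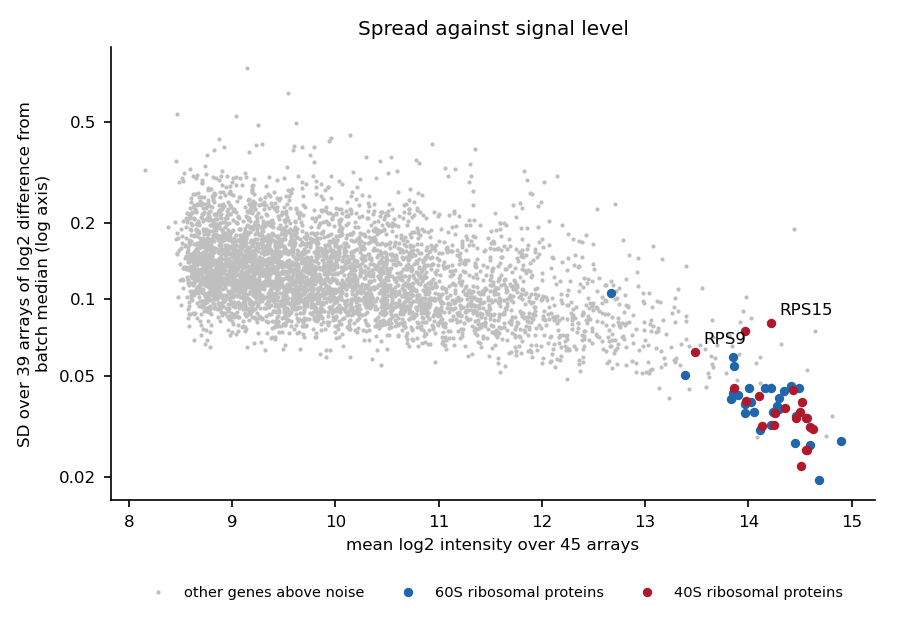
SD over the 39 targeting siRNA arrays of the log2 difference from the batch median (y axis, log scale) against mean log2 intensity over all 45 arrays (x axis), for 4751 other genes above noise (grey) and the 49 ribosomal protein genes above noise (blue 60S, red 40S). The members lie at the bright end and mostly at the lower edge of the cloud, with RPS15 among those standing higher at 0.0808.

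A log2 difference of 0.25, about 1.19-fold, was reached in 28 of the 2067 values of the members (1.35%), against 7.33% of the values of genes above noise. At least 1 such value was found in 5 of the 53 members, against 75.7% of the 4800 genes above noise and 92.2% of all genes. Among genes with a mean of at least 13, it was found in 1 of 48 members (2.08%) and 17 of 89 others (19.1%). Much of the first contrast thus goes with signal level. Of the 1911 values of the 49 members above noise, 1 passed: RPS15, a small-subunit protein at the decoding side of the 40S head, after siRNA against the transcription factor CEBPD. RPS15 was at 13.83 in that array, where the batch median was 14.27 and the next lowest of the other 22 KD2 arrays was 14.24.

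The median difference over the members lay between -0.0273 and 0.0449 in all 39 arrays, with an SD over arrays of 0.0163. It was lowest after siRNA against ABL1, a tyrosine kinase, and NMI, an interferon-induced STAT partner, both at -0.0273, and against CEBPD at -0.0242. In the ABL1 array 34 members were lower and 16 higher, where 40.2% of genes above noise were lower. There 2.65% of genes above noise passed 0.25, and RPL27A at -0.48, RPLP2 at -0.27 and RPL36A at -0.17 were farthest. In the NMI array 35 were lower and 17 higher, but 62.7% of genes above noise were lower too, with a median of -0.0505. There 13.8% of genes above noise passed, and the farthest were RPLP2 at -0.73, RPL27A at -0.37 and RPL36 at 0.20. In the CEBPD array 37 were lower and 16 higher, where 52.0% of genes above noise were lower and 9.56% passed. After RPS15 at -0.45 the farthest were RPLP2 at 0.27 and RPS9, a small-subunit protein near the mRNA entry, at -0.25, just inside the limit.

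The member median was highest after siRNA against TCEA1, the transcription elongation factor TFIIS, at 0.0449. There 45 members were higher and 4 lower, while the median of all genes above noise was -0.0405 and 8.42% of them passed 0.25. RPL36 was at 0.23 and RPL36A at -0.26 in this array, and 25 of the 32 large-subunit and 20 of the 21 small-subunit genes were higher. The arrays of FOXM1, the mitotic transcription factor, and HDAC3, a histone deacetylase, followed with medians of 0.0261 and 0.0242. In the FOXM1 array 35 members were higher and 17 lower, and 16.8% of genes above noise passed 0.25. The median of all genes above noise was 0.025 there, near that of the members, and 39.6% of them were lower. RPLP2 was at -0.35, RPL36 at 0.23 and RPS25 at 0.11 in the FOXM1 array. In the HDAC3 array 38 members were higher and 15 lower, while genes above noise had a median of -0.0351 and 62.3% of them were lower. There 8.04% of genes above noise passed, and RPL36A at 0.18 and RPS25 at 0.13 were farthest.

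Targets that act in growth signalling, general transcription or ribosome synthesis, TCEA1 apart, are described next. Their arrays are among the 39 over which the range above was taken. After siRNA against AKT1, the growth factor kinase upstream of mTOR, the member median was -0.0222, with 34 lower. After that against PIK3CB, a PI3-kinase subunit, the member median was 0.0078, with 35 higher. Of genes above noise, 46.7% were lower in the AKT1 array and 42.7% in the PIK3CB array. The member median was -0.009 for RB1 and 0 for MAP2K1 (MEK1), SP1, CEBPZ and CDK7. Among members above noise, the value farthest from the batch median was -0.09 in the AKT1 array (RPS25), 0.09 in the PIK3CB array (RPL34), -0.08 in the MAP2K1 array (RPS7) and -0.13 in the RB1 array (RPL8). It was 0.10 in the SP1 array (RPL3), -0.15 in the CEBPZ array (RPL36) and 0.15 in the CDK7 array (RPS9).

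The list medians of other genes of the pathway covered a wider range over the same arrays. The median of 16 measured ribosome biogenesis factors ran from -0.142 after siRNA against MCM2 to 0.104 after that against CTNNB1, and that of 75 mitochondrial ribosomal proteins from -0.0895 to 0.0659. The median of 12 genes of growth control upstream (MYC, mTOR and their partners) ran from -0.118 to 0.0803. Most members of these lists are dimmer than the cytosolic ribosomal protein genes, and the part of the level in this difference was not tested.

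The CEBPD array was also the lowest of 39 for other TOP mRNAs. Of 17 measured, which encode translation factors and their partners, 14 were lower and 3 higher than the batch median, and the list median was -0.116. EIF4B, an initiation factor, was at -0.51, EEF1D, an elongation factor subunit, at -0.46, NAP1L1 at -0.30, EIF3F at -0.29 and EEF2, which moves the ribosome along the mRNA, at -0.24. The snoRNA host EPB41L4A-AS1 was at -0.45 and ZFAS1 at -0.22. Of the 8 paralogs outside the members 3 were lower and 5 higher, from RPL22L1 at -0.29 to RPL39L at 0.14. In the same array 41 of 75 mitochondrial ribosomal proteins were lower, and the ACTB difference between 3' and 5' of 1.47 lay within the range of its batch. Among the other arrays of lowest or highest member median, NMI had the lowest ACTB difference of KD2 (1.09) and FOXM1 the highest (2.08). FOXM1 also had the highest GAPDH difference of KD2 (-0.02) and TCEA1 that of KD1 (0.14). ABL1 and HDAC3 were at neither end of their batch. The part of these values in the member medians was not tested.

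**Figure D3:**
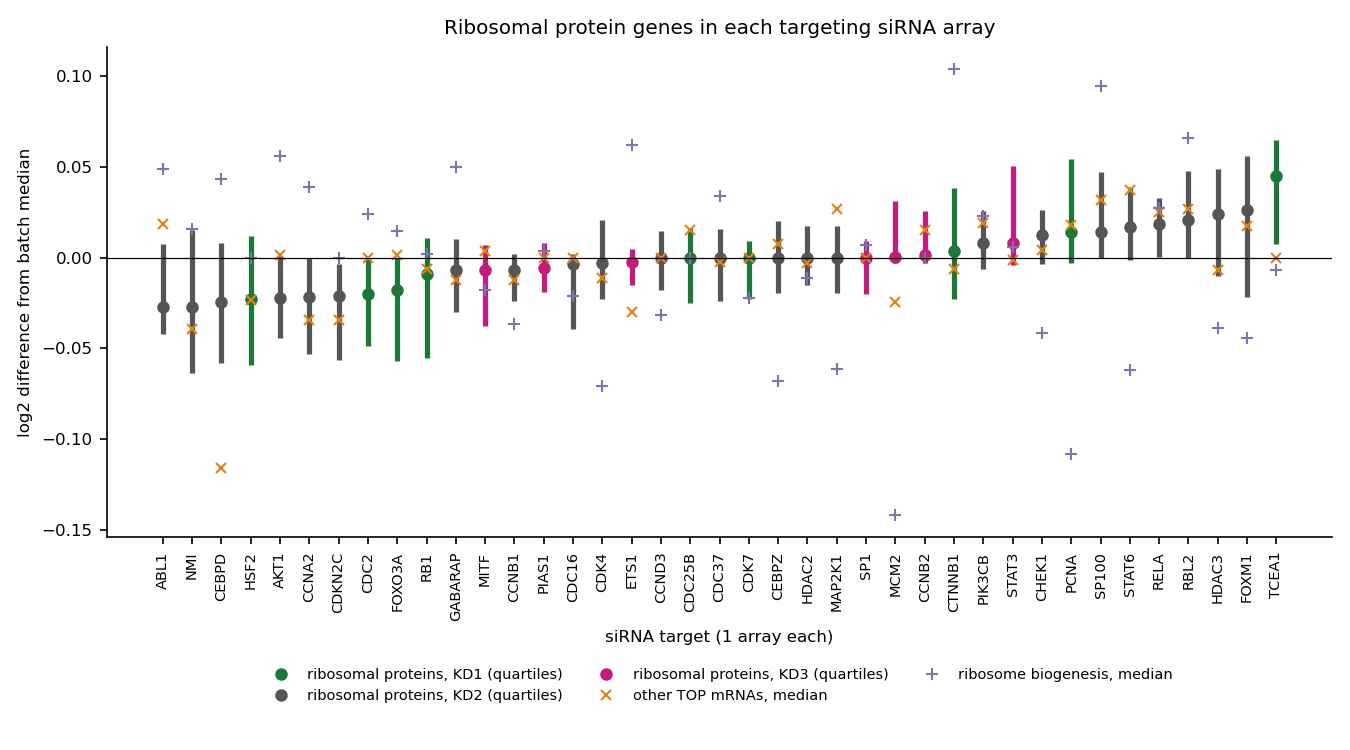
Log2 difference from the batch median (y axis) in each of the 39 targeting siRNA arrays (x axis, 1 array for each target). Circles and bars give the median and quartiles over the 53 ribosomal protein genes, crosses the median of 17 other TOP mRNAs and plus signs the median of 16 ribosome biogenesis factors. The circles lie between -0.0273 and 0.0449, while the other lists reach -0.116 (CEBPD) and -0.142 (MCM2).

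Correlations among members over the 39 arrays were mostly weak. After centring by batch, 97 of 1378 member pairs (7.04%) had a Spearman rho of at least 0.5 in size, against 2.78% of pairs of other genes with a mean of at least 13 and 2.23% of pairs of genes above noise. The median rho was 0.147 in members, 0.0106 in the other bright genes and 0.152 in mitochondrial ribosomal proteins. These are descriptions over arrays that share a normalisation, and with each array centred on the median of genes above noise the share was 37.9%, without batch centring it was 20.2%, below the 23.0% of genes above noise, and with probe sets that lack an _s_ or _x_ suffix, which mark shared sequence, it was 1.94%. Of the members, 42 are read from a probe set with such a suffix.

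RPL11, which with RPL5 and 5S rRNA binds MDM2, had the highest median rho to the other members at 0.32, followed by RPL37 at 0.31, RPL35A at 0.30, RPL34 at 0.28 and RPS27 at 0.28. The lowest were RPS15 at -0.09, RPL36A at -0.02, RPS10 at -0.01, RPL12 at -0.01 and RPL8 at 0.00. The closest pair was RPS25 and RPS27, with rho 0.80 and Pearson's r 0.80, and next came RPL38 and RPS29 with rho 0.77.

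The second comparison asked whether the members differ between the 3 batches, which hold arrays of different siRNAs. It was made in limma on all 54675 probe sets with Benjamini-Hochberg adjustment, and arrays of different siRNAs stood as the replicates of a batch. Differences between batches were common in all genes and small in the members. KD3 was higher than KD2 in 6 members and lower in 7 at an adjusted p under 0.05, against 31.8% higher and 41.2% lower of genes above noise, and 20.5% and 27.0% of all genes. KD1 was higher than KD2 in 5 and lower in 16, against 33.2% and 33.8% of genes above noise, and 26.2% and 22.9% of all genes. KD3 was higher than KD1 in 19 and lower in 8, against 34.7% and 42.0% of genes above noise, and 22.7% and 31.5% of all genes. With each array centred on the median of genes above noise, the last 2 splits were 3 higher and 29 lower, and 25 higher and 5 lower. That median differed by 0.0459 for KD1 less KD2 and -0.0438 for KD3 less KD1, and centring took this off the difference of every gene. With quantile normalisation the first split was 8 higher and 6 lower. Shares of all genes called under these settings are not given here. Those called and past 0.25 in size numbered 2, 2 and 4, against 54.1%, 40.3% and 62.8% of genes above noise. Of the 89 other genes with a mean of at least 13 they numbered 24, 13 and 29. The median size of difference in those 89 was 0.122, 0.124 and 0.172, against 0.0479, 0.0585 and 0.0898 in the members. The part of signal level was not tested. In none of the 3 comparisons were 18 members called, and the share of all genes called in none is not given here.

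Both subunits had calls in each direction. From KD2 to KD1, 9 of 32 large-subunit and 7 of 21 small-subunit genes were lower. From KD1 to KD3, 10 large-subunit and 9 small-subunit genes were higher. The median difference over the 53 members was 0.0134 for KD3 less KD2, -0.0386 for KD1 less KD2 and 0.0563 for KD3 less KD1. Arrays of the 2 batches did not overlap in 4, 7 and 21 members, against 35.3%, 15.6% and 52.1% of genes above noise. As given above, the ACTB difference between 3' and 5' set KD3 apart from the other batches and overlapped between KD1 and KD2. The GAPDH difference set KD1 apart, and the melanocyte sum did not overlap between any batches. The part of these in the members' differences was not tested.

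RPL36, a large-subunit protein of the outer surface, carried the largest difference. It ran from 12.86 to 13.16 with a median of 12.92 in KD1, from 12.31 to 12.72 with a median of 12.48 in KD2 and from 12.59 to 12.82 with a median of 12.68 in KD3. All 9 KD1 arrays were above all arrays of the other batches, while KD2 and KD3 overlapped. The difference was 0.50 ± 0.05 (SE, adjusted p = 1.59e-12 in limma) for KD1 less KD2, which is 1.41-fold, 0.18 ± 0.05 (adjusted p = 0.00202 in limma) for KD3 less KD2 and -0.31 ± 0.06 for KD3 less KD1. The control siRNA arrays 1 to 3 were at 12.92, 12.62 and 12.91 and the untreated arrays at 13.08, 12.48 and 12.99, so the 6 arrays without a stated batch covered most of this range.

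RPS15 was lower in KD3. Its values ran from 14.21 to 14.34 with a median of 14.31 in KD1, from 13.83 to 14.34 with a median of 14.27 in KD2 and from 13.95 to 14.05 with a median of 13.99 in KD3. KD3 lay below all KD1 arrays and below all KD2 arrays but that of CEBPD. The difference was -0.27 ± 0.04 (adjusted p = 7.43e-07 in limma) for KD3 less KD2 and -0.30 ± 0.05 for KD3 less KD1, and without the CEBPD array the first was -0.29. Control siRNA arrays were at 14.25, 14.29 and 13.99 and untreated arrays at 14.32, 14.27 and 13.84, and the near copies are the lowest of each group.

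RPL12, a protein of the stalk base, was higher in KD3. It ran from 14.15 to 14.33 in KD1, from 14.19 to 14.40 in KD2 and from 14.47 to 14.51 in KD3, with medians of 14.26, 14.33 and 14.48. KD3 lay above every array of the other batches. The difference was 0.16 ± 0.03 (adjusted p = 4.41e-05 in limma) for KD3 less KD2 and 0.23 ± 0.04 (adjusted p = 1.08e-06 in limma) for KD3 less KD1. Its second bright probe set gave 0.17 and 0.21.

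RPS9, RPS14 and RPS3 were lower in KD1. RPS9 ran from 13.18 to 13.46 in KD1, from 13.30 to 13.63 in KD2 and from 13.55 to 13.62 in KD3, with KD1 less KD2 at -0.22 ± 0.03 and KD3 less KD1 at 0.26 ± 0.04, and neither was called with the RPS9 probe set of largest variance. RPS14, the protein lost in 5q- anaemia, ran from 14.33 to 14.49 in KD1, from 14.53 to 14.65 in KD2 and from 14.62 to 14.65 in KD3, so KD1 lay below both. RPS3, which is at the mRNA entry and also acts in DNA repair, gave -0.15 ± 0.03 for KD1 less KD2 and 0.17 ± 0.04 for KD3 less KD1. RPL24, a large-subunit bridge protein, was -0.13 in KD1 against KD2, and RPL10A was 0.18 in KD3 against KD1.

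RPL19 and RPL32 were higher in KD1. RPL19 ran from 14.20 to 14.43 in KD1, from 14.01 to 14.16 in KD2 and from 14.09 to 14.17 in KD3, with no overlap between KD1 and the others. KD1 less KD2 was 0.21 ± 0.03 (adjusted p = 7.57e-08 in limma) for RPL19 and 0.13 ± 0.03 for RPL32, and 0.12 for RPS10 and 0.07 for RPS18. The RPS10 call was lost with centred arrays (adjusted p = 0.0505 in limma), and the RPS18 call with centred arrays, with array weights and without the CEBPD array. KD3 less KD1 was -0.18 for RPL19 and -0.20 for RPS10, a small-subunit protein mutated in Diamond-Blackfan anaemia. RPL10A, RPL12, RPL36 and RPS10 were the 4 members called in all 3 comparisons, and the share of all genes called in all 3 is not given here.

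Smaller differences made up the other calls of KD3 against KD2. RPL39, at the exit of the peptide tunnel, was 0.10 ± 0.03 higher, RPS7 0.09 ± 0.03 and RPS12 0.09 ± 0.03. RPL38, which is known for selective translation of Hox mRNAs, was -0.13 ± 0.03, RPL22 -0.13 ± 0.03 and RPS10 -0.08 ± 0.03. All KD3 arrays lay below all KD2 arrays for RPL22 and RPL38. With the probe set of largest variance in place of the brightest, RPS7, RPS12, RPL38, RPL22 and RPS10 were not called in KD3 against KD2, and with quantile normalisation RPL22 was not (adjusted p = 0.0649 in limma). The other probe sets of RPS12 (mean 6.29) and RPL38 (9.14 and 9.25) are dim. The 3 bright probe sets of RPL22 gave -0.14 to -0.13 for KD3 less KD2, and the 3 of RPS10 gave -0.10 to -0.08. The 2 bright ones of RPS7 gave 0.05 and 0.09. Among the dim members, RPL36A was -0.36 ± 0.06 in KD3 against KD2 and -0.42 ± 0.07 against KD1, and RPLP2 was -0.33 ± 0.12 in KD1 against KD2.

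Some members were described for their known role. RPS6, the small-subunit protein phosphorylated by S6 kinase, had batch medians of 14.54 in KD1, 14.60 in KD2 and 14.68 in KD3, and KD3 less KD1 was 0.14 ± 0.04. Another bright RPS6 probe set gave 0.44 ± 0.04 for the same difference, with KD1 from 14.02 to 14.20, KD2 from 14.37 to 14.45 and KD3 from 14.52 to 14.67, no overlap among the 3. RPL11 had batch medians of 13.94, 13.97 and 14.03, and KD3 less KD1 was 0.09 ± 0.04 (adjusted p = 0.0361 in limma). RPS19, the gene most often mutated in Diamond-Blackfan anaemia, and RPS27 were called in no comparison, with medians of 14.32, 14.35 and 14.37 for RPS19 and of 14.41, 14.44 and 14.39 for RPS27. RPLP1, the partner of RPLP2 in the stalk, was likewise called in none, at 14.51, 14.44 and 14.44. RPL41 had medians of 14.85, 14.90 and 14.95, and KD3 less KD1 was 0.12 ± 0.03.

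**Figure D4:**
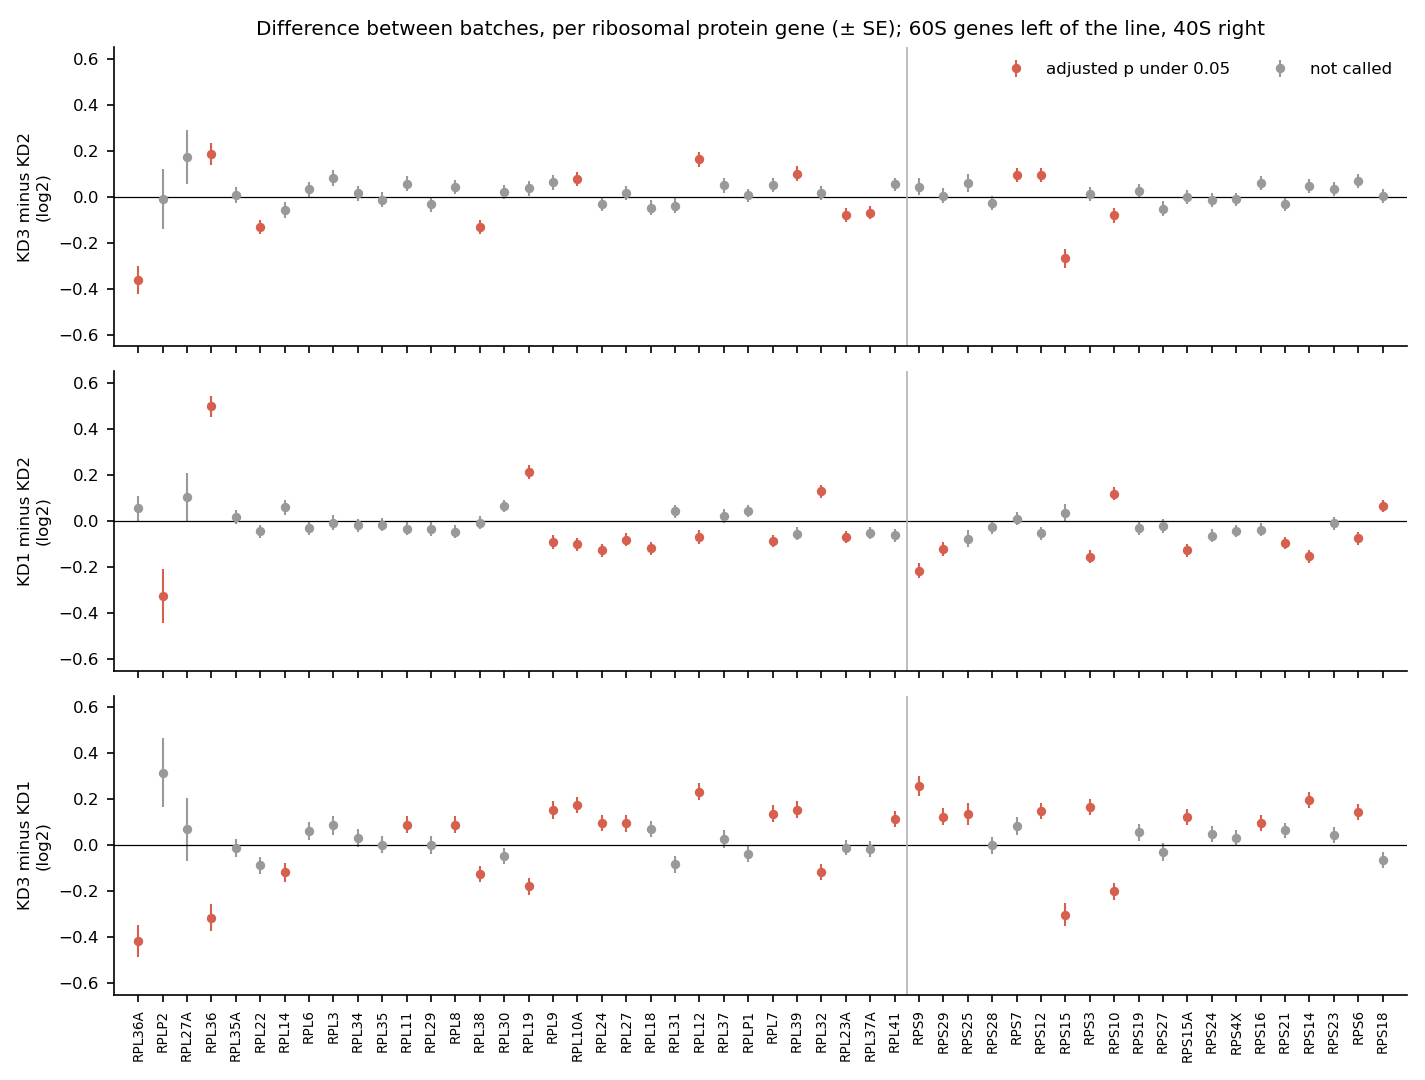
Log2 difference between batches (y axes, 1 panel for each comparison) for 52 ribosomal protein genes (x axis, RPS4Y1 not drawn), with bars of ± 1 SE from limma and red for an adjusted p under 0.05. RPL36 stands out at 0.50 in KD1 against KD2, and most others lie within 0.2 of 0.

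**Figure D5:**
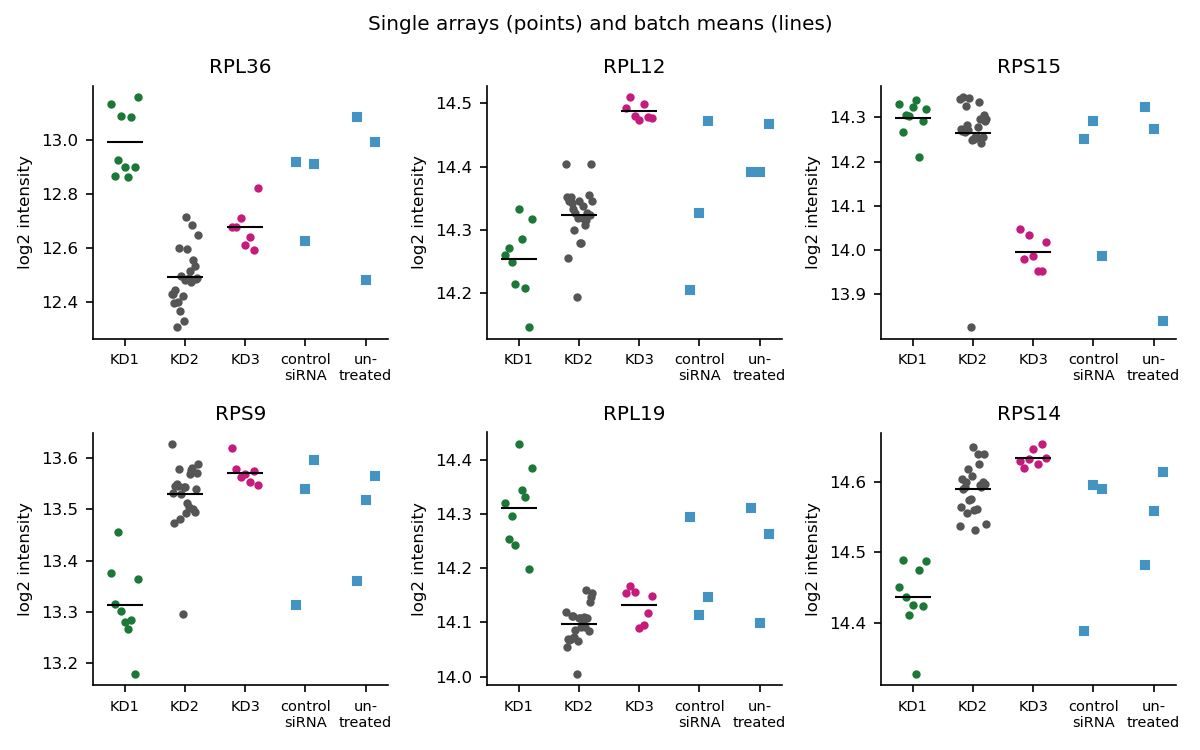
Log2 intensity (y axis of each panel, scaled to the gene) of RPL36, RPL12, RPS15, RPS9, RPL19 and RPS14 in single arrays, by batch and for the 3 control siRNA and 3 untreated arrays in the order of their numbers, with lines for batch means. RPL12 is at 14.47 or more in every KD3 array, and RPS15 lies between 13.95 and 14.05 there.

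The choice of probe set bears on all of this. Of 14 members with more than 1 probe set of mean at least 13, the largest gap between such probe sets over the 3 comparisons had a median of 0.065 and ran from 0.0185 for RPL29 to 0.298 for RPS6. Both signs occurred for KD3 less KD1 in 5 of the 14, which were RPL14 (-0.12 and 0.09), RPL35A (-0.01 and 0.14), RPS7 (-0.03 and 0.08), RPS4X (-0.02 and 0.03) and RPS19 (-0.01 and 0.06). Of 41 second probe sets with means under 13, 10 were called and past 0.25 in KD3 against KD2, 15 in KD1 against KD2 and 22 in KD3 against KD1, so dim probe sets of the same genes were called past that size more often than the 53 used. Of all 19775 genes, 6851, 5967 and 8813 were called past it in the same comparisons. The counts of the dim probe sets are therefore not read as particular to these genes. For RPL37 a probe set of mean 7.45 ran from 6.55 to 7.13 in KD1, from 6.73 to 7.77 in KD2 and from 8.27 to 8.70 in KD3, and KD3 less KD2 was 1.12 ± 0.09 (adjusted p = 1.65e-14 in limma). The one used for RPL37, of mean 14.41, gave 0.05 ± 0.03 (adjusted p = 0.237 in limma). For RPL22 a probe set of mean 11.07 was -0.44 ± 0.06 in KD1 against KD2, where the one used gave -0.05.

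Outside the members, a bright probe set that lists RPS26, a small-subunit protein beside the mRNA exit, with the pseudogene RPS26P11 and a further locus, was lower in KD3. It ran from 13.59 to 13.71 with a median of 13.66 in KD1, from 13.49 to 13.64 with a median of 13.58 in KD2 and from 12.58 to 12.75 with a median of 12.63 in KD3. All KD3 arrays lay below all others, and KD3 less KD2 was -0.93 ± 0.03 (adjusted p = 1.27e-27 in limma). Control siRNA arrays were at 13.58, 13.56 and 12.78 and untreated arrays at 13.44, 13.56 and 12.89. Its SD within batches was 0.039, close to the median of the members, and which of the 3 listed genes gave the signal was not tested.

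The 8 paralogs that the members' rule leaves out had a median size of difference of 0.187 between KD3 and KD2, 0.138 between KD1 and KD2 and 0.407 between KD3 and KD1. The same were 0.0479, 0.0585 and 0.0898 for the members and 0.281, 0.199 and 0.364 for genes above noise. RPS27L, a paralog of RPS27 that is known as a p53 target, ran from 12.83 to 13.05 in KD1, from 12.26 to 12.90 in KD2 and from 12.13 to 12.38 in KD3, and KD1 less KD2 was 0.51 ± 0.05 (adjusted p = 5.22e-12 in limma). After siRNA against the checkpoint kinase CHEK1 it was 0.53 above the batch median, where the next highest of the 39 arrays was at 0.20. RPL22L1 was 0.46 ± 0.05 higher in KD3 than in KD2, from 12.01 to 12.47 in KD2 and from 12.56 to 12.91 in KD3, with no overlap, while RPL22 was at -0.13.

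RPL7L1, a factor of large-subunit assembly, was -0.43 ± 0.04 in KD3 against KD2, RPL36AL was -0.24 ± 0.04 and RPL26L1 was -0.08 ± 0.04, which did not pass (adjusted p = 0.128 in limma). RPL39L, below noise with a mean of 6.74, ran from 6.19 to 6.91 in KD2 and from 7.51 to 7.97 in KD3 and was 1.32 ± 0.07 higher there. RPL3L, of heart and skeletal muscle, and RPL10L, of testis, were below noise at 4.71 and 6.30 and were called in none of the comparisons. FAU, which encodes RPS30 fused to a ubiquitin-like protein, was 0.11 ± 0.04 higher in KD3 than in KD2, and its lowest array was that of RB1 at -0.30. Of the other TOP mRNAs, 5 of 17 were higher and 2 lower in KD3 than in KD2, and of 75 mitochondrial ribosomal proteins 38 were higher and 19 lower.

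The last comparison set the 3 control siRNA arrays against the 3 untreated ones. No member was called, against 0.0% of all 19775 genes in limma, and 0 of 53 members and 28 of 19775 genes had an unadjusted p under 0.05. The median difference was -0.0267, with 37 members lower and 16 higher after control siRNA, and the differences ran from -0.16 for RPL34 to 0.26 for the dim RPL36A. This fit did not pair same-numbered arrays, though they deviated together. Its standard errors of members were between 0.11 and 0.22, against a median size of difference between KD1 and KD2 of 0.0585. In both groups the arrays lay apart: the median distance of the members of control siRNA array 1 was 0.0441 to the KD1 medians and 0.128 to those of KD3, while for array 3 it was 0.0913 and 0.0261 on the log2 scale. For untreated arrays 1 and 3 the distances were 0.0556 and 0.118 to KD1 and 0.0864 and 0.0487 to KD3. Untreated array 1 was about as near to KD2, at 0.0571. Array 2 of both groups was nearest to KD2, at 0.0187 for control siRNA and 0.0218 for untreated. A difference within this spread was not detectable in the fit without pairs, and with same-numbered arrays paired no member was called either.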

How the data were processed

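RNA of 45 A375 cultures was measured on Affymetrix U133 Plus 2.0 arrays. The authors normalised them with RMA, whose version is not given in the sources used here, and deposited linear intensity values, which were taken to log2 without further normalisation. Groups came from the labels and batches from the study. Names came from GEO's platform annotation, in which 41097 of 54675 probe sets had 1 gene and 1801 several. Members were named as the 5 of largest batch difference each way, of largest and smallest SD and of highest and lowest correlation, as the 3 farthest in the 3 arrays of lowest and of highest median, and by known role, with siRNA targets of growth and transcription. The members and lists were chosen with earlier results of these data known. Arrays of 1 batch stood as replicates in limma 3.58.1 (R 4.3.3), tested on simulated data, with Benjamini-Hochberg adjustment over all probe sets and a threshold of 0.05. Replicates of control siRNA and untreated cells are not said to be separate cultures, so p-values measure the spread between arrays. Same-numbered arrays deviated together (r of 0.58, 0.671 and 0.89), and the shared numbers were treated as pairs in a second fit. Arrays have no read depth, and their number and the signal over noise limit the precision. Alternatives varied scaling, filter, probe set, weights and arrays. Other values were computed in Python 3.11.15 with pandas 2.3.3 and scipy 1.17.1.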

Additional observations from a re-analysis of the deposited data

Results flagged for a closer look

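In batches of 4 to 10 arrays, the highest or lowest array of each named member was checked for a gap to its neighbour beyond Dixon's 95% limit, and 4 of 40 groups passed, where chance gives about 1 in 20. RPLP2, whose probe set is below noise, was at 7.14 in the PCNA array of KD1, where the next array was at 6.19. RPS14 was at 14.33 in the HSF2 array of KD1, with the next at 14.41. In the CCNB2 array of KD3, RPS12 was at 14.17, with the next at 14.22, and RPS9 was at 13.62, with the next at 13.58.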

How the results depend on the processing

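The count of members called between KD3 and KD2 was 13 and became 20 among probe sets above noise alone, 8 of 31 members with probe sets that lack an _s_ or _x_ suffix, 23 with a variance prior by level and 20 with the 15 genes listed only among several names added; the last 2, and leaving out the CEBPD array, were chosen after seeing the data. For KD1 against KD2 the count was 21 and became 32 (3 higher, 29 lower) with arrays centred on the median of genes above noise and 33 with the variance prior, and the split of KD3 against KD1 became 25 higher and 5 lower with that centring. Quantile normalisation gave 8 higher and 6 lower for KD3 against KD2. Without the CEBPD array the counts were 13, 20 and 27. Shares of all genes under these alternatives are not given, so the counts show how the calls move and not a trait of the members. With the probe set of largest variance, RPS12 (KD3 against KD2, -0.0325), RPL38 (KD3 against KD2, 0.0074) and RPS9 (KD3 against KD1, -0.026) reversed and were not called, and RPS7, RPL22 and RPS10 (KD3 against KD2) and RPS9 (KD1 against KD2, -0.0114) lost their calls. For RPS12 and RPL38 that probe set is a dim one. RPL22 (KD3 against KD2) lost its call with quantile normalisation, RPS10 (KD1 against KD2) with centred arrays, and RPS18 (KD1 against KD2) with centred arrays, array weights and without the CEBPD array.

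The member median farthest from 0 over the 39 arrays was 0.0449 and became 0.063 against the median of all arrays (the CDC2 array, below 0), 0.132 with centred arrays (TCEA1), 0.0246 with quantile normalisation (CEBPD, below 0) and 0.0815 without _s_ or _x_ probe sets (CEBPD, below 0). The share of correlated pairs was 7.04% and became 20.2% without batch centring (23.0% in genes above noise), 14.2% in KD2 alone (6.03% in genes above noise), 37.9% with centred arrays, 2.69% with the probe set of largest variance and 1.94% without _s_ or _x_ probe sets. The cause was not tested. Between control siRNA and untreated cells 0 members were called in limma with the replicate block that pairs the arrays, in each fit that left out 1 array and without both near copies, and the block changed no call. Small differences of dim probe sets are limited by their signal over noise.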

Other observations

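Chosen after their values were seen, the dim probe sets of several members varied with the dim RPL27A probe set across the 39 arrays. The bright ones of the same genes had a rho to it between -0.45 (RPS10) and 0.05 (RPL38). Of 45 other probe sets of members with means under 13, 5 had a rho of at least 0.5 to the dim RPL27A probe set after batch centring: both dim ones of RPL38 (rho 0.66 and 0.63), the dim ones of RPL37A (0.66), RPLP2 (0.65) and RPS10 (0.62). In the array of siRNA against PCNA, the sliding clamp of DNA replication, they were 1.22, 1.33, 0.73, 1.32 and 1.07 above the batch median, and that of RPL27A was 1.16 above it. In the NMI array the same 5 were at -0.58, -0.57, -0.61, -0.73 and -0.42. These 5 were picked by their rho over the same arrays. The share of other dim probe sets on the array with such a rho was not computed, so the pattern is not shown to be particular to the members. The bright RPL38 and RPL37A probe sets were at 0.03 and 0.00 in the PCNA array, and the bright one that lists RPL27A with SNORA3A was at 0.00. Those of RPS10 were at 0.03, -0.04 and -0.09 in it, and the one that lists RPLP2 with SNORA52 was at 0.07. The 3', 5' and middle control probe sets of 18S ribosomal RNA had a rho of 0.60, 0.49 and 0.24 to the dim RPL27A probe set, so 1 of the 3 reached 0.5. They were 0.97, 1.06 and 0.85 above the batch median in the PCNA array. The part of ribosomal RNA in these dim signals was not tested.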
